A study of Homo sapiens with 5 samples.

Results

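JUN, JUNB, JUND, FOSL1, FOSL2, ATF3, EGR1, MYC, IER2 and IER3 belong to the early transcriptional response of cells to serum and stress. They were chosen by symbol, and all 10 were found among the 26364 genes of the deposited table of normalized counts. The cells were IMR-90, a line of normal human fetal lung fibroblasts, which were growing in medium with fetal bovine serum when they were transfected with siRNA and were harvested 24 hr later for mRNA-seq. There were 2 Ctr-KD libraries, both from cells given control siRNA, and 3 NSD2-KD libraries, each from cells given a different siRNA against NSD2 (NSD2-1, NSD2-2 and NSD2-3). NSD2, also named WHSC1, is a methyltransferase of lysine 36 of histone H3. The question here was whether the early transcription factors of the serum response differed in level once NSD2 was depleted. Because each NSD2 siRNA was sequenced once, the siRNA and the library cannot be told apart. The cells were sampled with no serum pulse, and their growth state at harvest was not measured here.

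Serum growth factors act through RAS, RAF, MEK and ERK kinases, which activate ternary complex factors bound with SRF at CArG boxes, and the genes with these boxes are transcribed at once. JUN proteins pair with each other, with FOS and FOSL proteins or with ATF3 to form AP-1, the dimeric factor that binds TGANTCA and drives genes of proliferation, matrix turnover and stress. EGR1 is a zinc finger factor of the same first wave. MYC pairs with MAX at E-boxes (CACGTG) and is best known for driving ribosome synthesis and cell growth. IER2 and IER3 encode short nuclear and membrane-associated proteins of the early response. In fibroblasts that grow steadily in serum, FOS and EGR1 are usually far below the peak that follows a serum pulse, whereas FOSL1 and JUN stay on.

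The libraries held 2473691 to 2845063 reads on genes, so that 1 read was worth about 1 normalized count. NSD2 (listed as WHSC1) had 463 and 443 normalized counts in the Ctr-KD libraries and 90.2, 81.9 and 87.9 in the NSD2-1, NSD2-2 and NSD2-3 libraries, a log2 difference of -2.37 ± 0.12 (SE, limma, adjusted p = 0.000464). All 10 fibroblast markers examined were present in every library, with a lowest value of 144 normalized counts. The summed level of 4 epithelial markers was at most 2.18 (KRT5 and KRT14 at 0) and that of 3 endothelial markers at most 5.52 (PECAM1 and CDH5 at 0). Of 4 blood markers, PTPRC, CD3E and LYZ were at 0 and CD68, a lysosomal gene that fibroblasts also express, gave a sum of 70.0 to 78.1 in Ctr-KD and 60.5 to 103 in NSD2-KD. The 2 smooth muscle markers summed to 15.4 to 18.1 in Ctr-KD and 15.3 to 22.1 in NSD2-KD. Between both controls, counts varied hardly more than read counting alone would give (chi-square per degree of freedom 1.05 over 11341 genes), while every other pair of libraries, within or between groups, lay between 4.11 and 5.62. The NSD2-KD libraries therefore carried nearly all of the replicate spread behind the values below.

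EGR1 was the lowest of the members relative to control. It had 201 and 211 normalized counts in the Ctr-KD libraries and 155, 164 and 123 in the NSD2-1, NSD2-2 and NSD2-3 libraries. All 3 NSD2-KD values lay below both controls, at 75.1%, 79.6% and 59.8% of the pooled control, and each of their 95% counting intervals (62.4 to 90.1%, 65.6 to 96.2% and 48.6 to 73.1%) ended below 100%, which held with all 3 siRNAs for 2.93% of the 11313 genes tested. The intervals are exact ones on recovered reads and cover counting error only. All 3 share the same 416 pooled control reads, so they are not independent of each other. The group means were 206 ± 6.99 (SD, n = 2) and 147 ± 21.4 (SD, n = 3). The log2 difference was -0.49 ± 0.15 (SE) with a 95% interval of -0.85 to -0.14, and limma gave an adjusted p of 0.369 over all genes tested, so that EGR1 did not pass. Over 16 alternative ways of processing, the log2 difference ranged from -0.57 to -0.37 and the adjusted p from 0.25 to 1.0. In RNA from a whole culture, fewer cells with the transcript and less RNA per cell cannot be told apart.

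The EGR1 promoter is shown because it carries the CArG box, the docking site of SRF and the hallmark of immediate early genes, which no other member's window held. Windows of the 250 bases before a start were taken from RefSeq (GRCh38.p14), where 7 of the 10 members had an entry. The EGR1 window, chr5:138465229-138465478 on the + strand, held 2 CArG boxes, at -105 to -96 and at -83 to -74 from the start, given here in capitals. Of 35116 such windows in the genome, 1.16% held a CArG box on either strand. The match is one of letters only. The other motifs searched on both strands, none of them in this window, were the AP-1 site TGANTCA, the ATF and CREB sites TGACGTCA and TGACATCA, the E-box CACGTG of MYC and the EGR site GCGGGGGCG. The last was in 4.72% of all windows and in none of the members'.
EGR1: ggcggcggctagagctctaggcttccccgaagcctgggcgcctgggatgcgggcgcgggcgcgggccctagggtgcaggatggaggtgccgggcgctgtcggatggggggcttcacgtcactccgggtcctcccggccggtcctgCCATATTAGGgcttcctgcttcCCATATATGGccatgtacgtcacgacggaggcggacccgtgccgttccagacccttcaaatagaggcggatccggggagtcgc

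The other members followed no common course. Of the 9 members with reads, all of which passed the filter of a mean of at least 10 normalized counts, 7 had a negative log2 difference, where 51.5% of all tested genes did. Their median was -0.16, against -0.01 over all tested genes. None of the 9 passed an adjusted p of 0.05 in limma, in edgeR or in DESeq2. Among all 11313 genes 0.053% were called lower and 0.0354% higher by limma, 0.0884% in all. At an unadjusted p under 0.05, EGR1 alone counted as lower and none as higher, beside 4.99% and 4.19% of all genes, 9.18% together. In 3 members (FOSL1, EGR1 and IER2) all NSD2-KD libraries lay below both Ctr-KD libraries, which held for 13.9% of all tested genes. No member lay above in all of them, which held for 13.8%. A call by limma was thus rare for any gene in this comparison, and the absence of one among 9 members is close to that background.

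**Figure D1:**
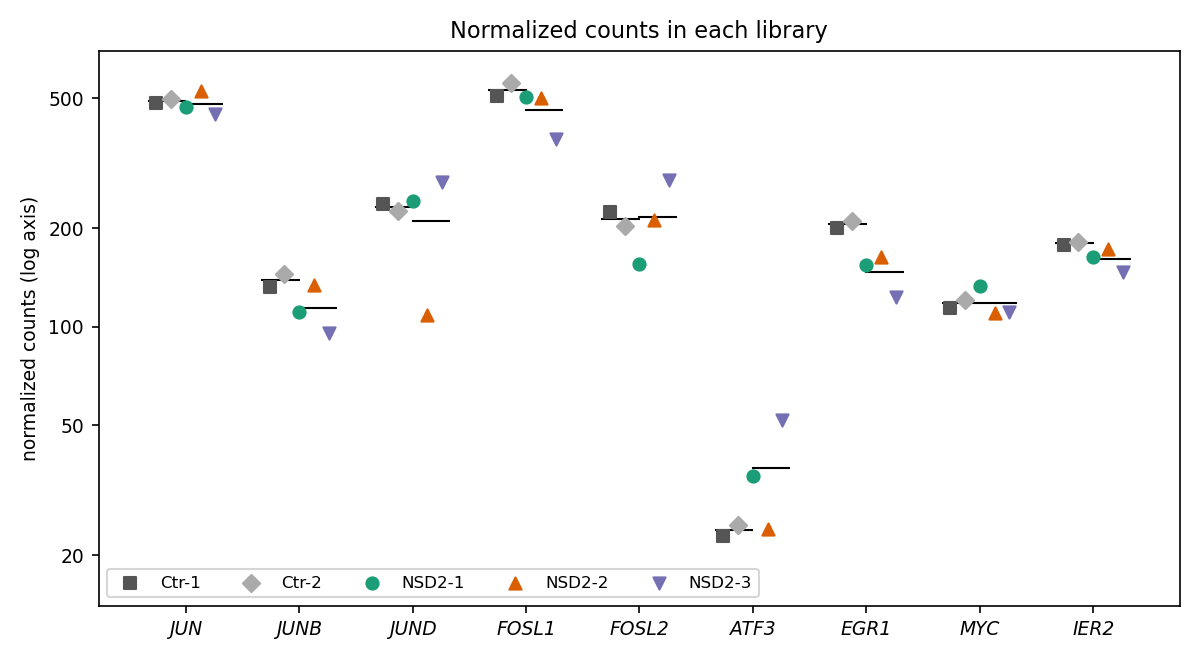
Normalized counts (log axis) of the 9 members with reads in each of the 5 libraries, with grey points for the 2 Ctr-KD and coloured points for the 3 NSD2-KD libraries and a bar at each group mean. EGR1, FOSL1 and IER2 have all 3 NSD2-KD points below the control points, while JUND and FOSL2 have NSD2-KD points on both sides.

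The JUN family gave 3 different pictures. JUN, the founding AP-1 subunit, had 485 and 497 normalized counts in Ctr-KD and 472, 527 and 447 in the 3 NSD2-KD libraries, on both sides of the controls. Its log2 difference was -0.03 ± 0.11 (SE), with a 95% interval of -0.28 to 0.22, the narrowest of the members. By the spread between these libraries, that interval leaves out a change of 1.5 times in either direction. The 2 controls differed by little more than counting error, so it holds hardly any spread between control samples. JUNB, a subunit that often opposes JUN on growth genes, had 132 and 145 counts in Ctr-KD and 111, 134 and 95.7 in NSD2-KD. The NSD2-2 library lay between the JUNB controls and the other NSD2-KD libraries lay below them. The JUNB log2 difference was -0.30 ± 0.17 (SE) with an interval of -0.69 to 0.10 and an adjusted p of 0.67 in limma, and it was -0.18 without NSD2-3.

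JUND, the subunit that resting and slowly growing fibroblasts keep on, split between the NSD2-KD libraries. It had 237 and 226 normalized counts in Ctr-KD, 243 with NSD2-1 and 278 with NSD2-3, but 109 with NSD2-2. With NSD2-2 it was at 47.1% of the pooled control (interval 37.6 to 58.5%), and with NSD2-3 at 119.9% (103 to 139%), so that these siRNAs gave intervals on opposite sides of 100%. The SD of its log2 values over the NSD2-KD libraries was 0.724, and only 1.7% of the 3765 tested genes with a mean within 2-fold of its own had a larger one. The group difference of -0.25 ± 0.35 (SE, adjusted p = 0.876 in limma) rested on the NSD2-2 library, and without it the log2 difference was 0.17. The JUND transcript is rich in G and C, at 69.9%. The 1103 tested genes with the highest GC content, from 61.8% up, had a median log2 value against control of 0.08 in the NSD2-2 library, where JUND had -1.08 and 1.18% of those genes lay lower.

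Per kilobase of transcript, JUN took 43.3% and 43.7% of the summed level of the 3 JUN genes in Ctr-KD. It took 43.7%, 55.4% and 41.1% with NSD2-1, NSD2-2 and NSD2-3. The JUND share was 35.7% and 33.6% in Ctr-KD and 38.0%, 19.4% and 43.2% in NSD2-KD. JUN thus led the family in 4 of the 5 libraries. JUND was the higher of the pair with NSD2-3, and with NSD2-2 JUNB at 25.2% passed JUND. The mean share of JUN was 43.5 ± 0.312% (SD, n = 2) in Ctr-KD and 46.7 ± 7.62% (SD, n = 3) in NSD2-KD, a difference within the spread of the NSD2-KD libraries.

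The windows before the JUN and JUND starts are shown because JUND was low with NSD2-2 while JUN was at 107% of control (96.0 to 119.8%), and each holds a site of the kind that ATF and CREB proteins bind alone or in a dimer with JUN. JUN, chr1:58784048-58784297 on the - strand, has TGACATCA at -67 to -60. JUND, chr19:18281623-18281872 on the - strand, has the palindrome TGACGTCA at -200 to -193. The motif is in capitals in each. Of all 35116 windows, 2.37% held TGACATCA and 1.65% held TGACGTCA on either strand. Neither window held TGANTCA, which 6.57% of windows held, or CACGTG, which 6.34% held.
JUN: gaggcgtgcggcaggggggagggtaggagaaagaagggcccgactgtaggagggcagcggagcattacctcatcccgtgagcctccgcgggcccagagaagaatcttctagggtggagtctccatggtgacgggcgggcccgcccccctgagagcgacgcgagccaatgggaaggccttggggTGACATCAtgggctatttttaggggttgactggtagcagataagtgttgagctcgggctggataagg
JUND: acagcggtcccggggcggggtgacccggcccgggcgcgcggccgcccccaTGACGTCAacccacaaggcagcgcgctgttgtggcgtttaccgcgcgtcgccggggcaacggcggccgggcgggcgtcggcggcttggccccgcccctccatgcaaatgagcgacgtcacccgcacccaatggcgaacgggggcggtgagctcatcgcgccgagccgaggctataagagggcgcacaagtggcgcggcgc

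**Figure D2:**
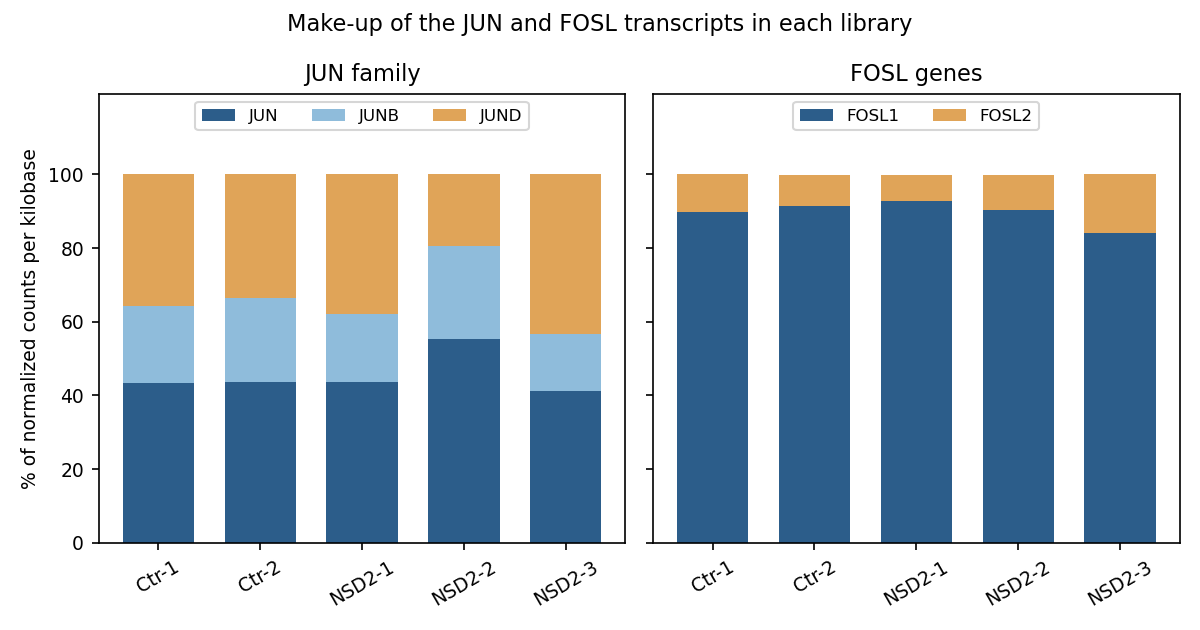
Share (percent of the summed normalized counts per kilobase of transcript) that each gene takes of the JUN family and of the FOSL pair, as stacked bars for the 2 Ctr-KD and 3 NSD2-KD libraries. JUN takes 41.1 to 43.7% in 4 libraries and 55.4% with NSD2-2, and FOSL1 takes 84.0 to 92.7% throughout.

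The partners of JUN differed from control with single siRNAs. FOSL1 (Fra-1), the main FOS-type protein of growing fibroblasts, had 508 and 557 normalized counts in Ctr-KD and 507, 501 and 375 in NSD2-KD. With NSD2-1 it was about 1 count below the lower control, and with NSD2-3 it stood at 70.6% of control (interval 62.6 to 79.4%). Its log2 difference was -0.22 ± 0.15 (SE, 95% interval -0.56 to 0.12, adjusted p = 0.72 in limma), and -0.08 without NSD2-3. FOSL2 (Fra-2) had 224 and 204 counts in Ctr-KD and 156, 212 and 282 in NSD2-KD, one below, one between and one above the controls. With NSD2-1 it was at 73.0% (60.8 to 87.4%) and with NSD2-3 at 132% (113 to 153%). These siRNAs thus had intervals on opposite sides of control for FOSL2, as NSD2-2 and NSD2-3 had for JUND. The FOSL2 group difference was -0.02 ± 0.22 (SE, adjusted p = 0.988 in limma), and 8.3% of the 3809 genes of like level had a larger SD over the NSD2-KD libraries than its 0.423. Per kilobase FOSL1 held 90.7 ± 1.11% (SD, n = 2) of the FOSL1 and FOSL2 total in Ctr-KD and 89.0 ± 4.53% (SD, n = 3) in NSD2-KD.

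ATF3, a stress-induced repressor of the family that pairs with JUN proteins, was the member with the fewest reads, 24 and 24 in Ctr-KD and 38, 22 and 53 in NSD2-KD. In normalized counts these were 22.9 and 24.7, and then 35.0, 24.0 and 51.7. It was higher than both controls with NSD2-1 and NSD2-3 and between them with NSD2-2. The log2 difference was the largest of the members, 0.55 ± 0.32 (SE), but its interval ran from -0.18 to 1.28 and the adjusted p was 0.67 in limma. With NSD2-3 it was at 218% of control (145 to 329%), whereas the intervals of NSD2-1 (93.6 to 230.2%) and NSD2-2 (58.2 to 171%) held 100%. The log2 difference was 0.28 without NSD2-3 and 0.81 without NSD2-2, so that it moved with single libraries. The window before its upstream start, chr1:212565157-212565406 on the + strand of GRCh38.p14, is shown because it held TGACATCA, in capitals at -123 to -116, the same letters as in JUN. The window before its second start held none of the motifs searched.
ATF3: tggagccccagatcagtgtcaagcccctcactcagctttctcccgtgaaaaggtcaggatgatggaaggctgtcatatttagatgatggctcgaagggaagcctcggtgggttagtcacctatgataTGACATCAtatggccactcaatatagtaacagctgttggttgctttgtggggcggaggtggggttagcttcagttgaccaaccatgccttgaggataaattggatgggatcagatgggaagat

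IER2, a short nuclear protein of the first wave, had 178 and 182 normalized counts in Ctr-KD and 163, 173 and 147 in NSD2-KD, all below both controls by a small margin. Its means were 180.1 ± 2.79 (SD, n = 2) and 161 ± 12.7 (SD, n = 3), and its log2 difference was -0.16 ± 0.13 (SE) with an interval of -0.46 to 0.13 (adjusted p = 0.765 in limma), and -0.10 without NSD2-3. The spread of IER2 between the 3 siRNAs, at a chi-square per degree of freedom of 0.983, was no larger than counting reads would give. For JUND the same measure was 35.4, for FOSL2 19.3 and for FOSL1 12.4. The measure grows with read number. By the SD of log2 values over the NSD2-KD libraries, 69.5% of genes with a mean within 2-fold had a larger one than IER2 and 20.7% a larger one than FOSL1, against 1.7% for JUND and 8.3% for FOSL2.

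**Figure D3:**
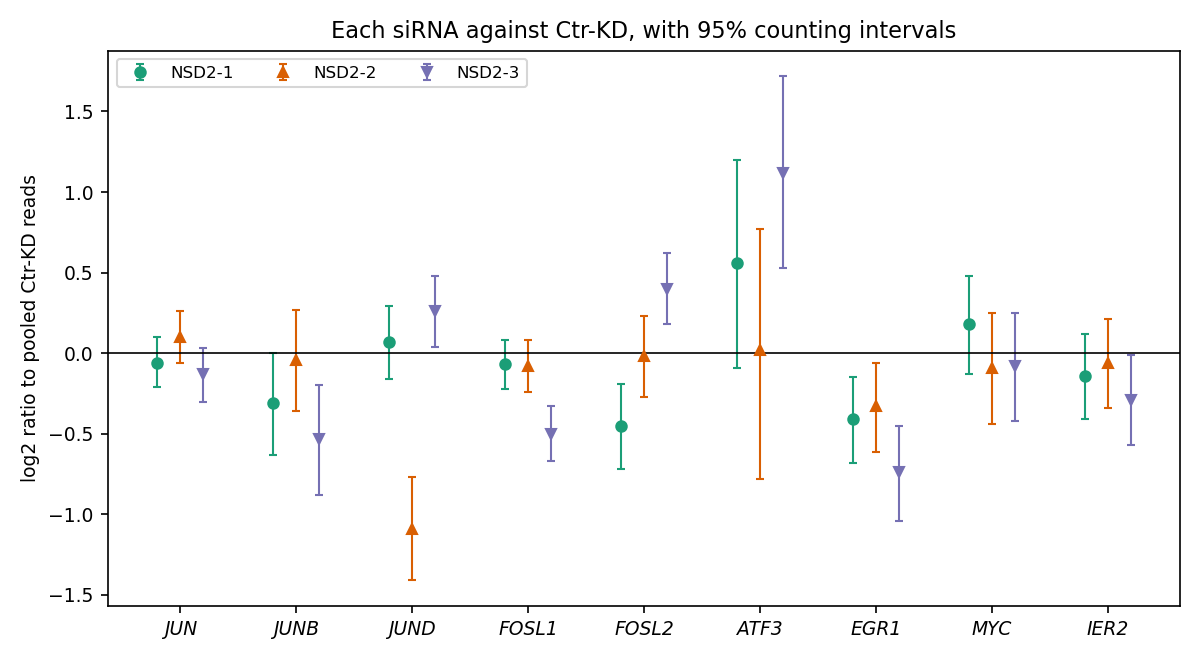
Log2 ratio of each of the 9 members in each NSD2-KD library to the pooled Ctr-KD reads, with bars for 95% exact intervals that cover counting error only and a line at 0, which is 100% of control. Intervals lie wholly below the line for 3, 2 and 4 members with NSD2-1, NSD2-2 and NSD2-3, beside 12.9%, 14.2% and 12.1% of all tested genes, and wholly above it for 3 members with NSD2-3 only, beside 11.3%.

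Over all genes together, every pair of libraries but the controls varied more than counting, with a chi-square per degree of freedom of at least 4.11. That sum does not say how many genes did so. With NSD2-1, 3 of 9 members (JUNB, FOSL2 and EGR1) had an interval below 100%, beside 12.9% of all tested genes, and none above, beside 11.4%. With NSD2-2, 2 of 9 were below (JUND and EGR1), beside 14.2%, and none above, beside 13.4%. With NSD2-3, 4 of 9 were below (JUNB, FOSL1, EGR1 and IER2), beside 12.1%, and 3 of 9 above (JUND, FOSL2 and ATF3), beside 11.3%. A gene with more reads passes such an interval more easily, and the share was not set against genes of like level. EGR1 was the member below 100% with all 3 siRNAs. These counts describe single libraries, so no test of 1 siRNA against another was possible.

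MYC had 114 and 121 normalized counts in Ctr-KD and 133, 110.3 and 111 in NSD2-KD, 1 library above both controls and 2 just below. The group means were 118 ± 5.01 (SD, n = 2) and 118 ± 13.1 (SD, n = 3). The log2 difference was 0.00 ± 0.15 (SE) with a 95% interval of -0.34 to 0.34 in limma. By the spread between these libraries, the interval of MYC leaves out changes larger than that. It is no evidence of equality within the interval. All 3 siRNA intervals held 100%.

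IER3, an early gene that modulates ERK signalling and cell death, was listed at 0 in all 5 libraries and was not tested. The value alone does not show whether the gene was silent. Many genes near it on chromosome 6 were also listed at 0, though not all. Of 72 protein-coding genes listed within 1000000 bases of IER3, 38 (52.8%) were at 0 in every library, against 277 of 907 (30.5%) on the chromosome and 4525 of 18085 (25%) in all. Only 5 of the 72 (6.94%) reached the filter. These shares were not matched for which genes fibroblasts express. Genes that most cells use were among those at 0, such as MRPS18B of the mitochondrial ribosome and the RNA helicase DHX16. The tubulin gene TUBB, close to IER3, had reads in each library, 51.4 and 66.9 normalized counts in Ctr-KD and 49.7, 42.6 and 45.9 in NSD2-KD. In the same window, HLA-C had 689.7 and 705.8 in Ctr-KD and 669.0, 818.2 and 725.3 in NSD2-KD. HLA-B had 302.0 and 333.3, and then 368.1, 341.9 and 282.1. The methods count uniquely mapped reads only. The cause of the zeros was not tested.

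In GRCh37 (hg19), the build of the deposited counts, the members lie apart on 7 chromosomes, and reads over their exons were counted per gene. The genes are JUN at chr1:59242517-59249720, ATF3 at chr1:212738676-212794119, FOSL2 at chr2:28615315-28640184, EGR1 at chr5:137801168-137804992, IER3 at chr6:30710976-30712325, MYC at chr8:128747680-128755197 and FOSL1 at chr11:65659520-65668044. JUNB at chr19:12902300-12904129, IER2 at chr19:13261225-13265725 and JUND at chr19:18390504-18392432 share a chromosome. The 3 JUN genes have a single exon each. Exons of JUNB overlap those of HOOK2 over 259 bases and exons of MYC those of CASC11 over 194 bases, on opposite strands. IER2 overlaps, also on the opposite strand, a pair of annotated genes that are not in the deposited table, over 946 and 662 bases of its 2110-base transcript. The library kit named does not mark strand, so reads in these stretches cannot be assigned to either gene, and those over IER2 may have been counted to it.

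Levels of different members can be set side by side only per kilobase of transcript. By normalized counts per kilobase in Ctr-KD, the order was FOSL1 at 313 ± 20.3, JUN at 151 ± 2.61, JUND at 120.2 ± 3.99, IER2 at 85.4 ± 1.32, JUNB at 75.8 ± 4.88, EGR1 at 65.7 ± 2.23, FOSL2 at 31.8 ± 2.13, MYC at 31.7 ± 1.35 and ATF3 at 12.3 ± 0.666 (SD, n = 2). Only FOSL2 and MYC overlapped as neighbours in that order. In NSD2-KD, FOSL1 at 271 ± 43.9 stayed above JUN at 148 ± 12.5 and ATF3 at 19.0 ± 7.19 stayed below MYC at 31.8 ± 3.51 (SD, n = 3) with no overlap of libraries. From JUN through JUND at 109 ± 46.2 to JUNB at 62.2 ± 10.6 the neighbours overlapped, and so did EGR1 at 46.9 ± 6.83 with FOSL2 at 32.3 ± 9.38. The lengths are those of a single transcript for each gene, and the isoforms in use were not measured.

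The genes around these factors were read from 7 lists with 138 listed genes, of which 116 were tested. None passed an adjusted p of 0.05 in limma or edgeR, 1 (BTG2) did in DESeq2, and 16 had an unadjusted p under 0.05 in limma (9.18% of all genes had). Of the other AP-1 and related bZIP factors, 8 of 15 were tested, 4 lower and 4 higher in value, with a median log2 difference of 0.01. MAFK and MAFG, small MAF partners of the antioxidant factors, had the smallest p. MAFK had 155 and 141 normalized counts in Ctr-KD and 236, 224 and 188 in NSD2-KD (log2 difference 0.54 ± 0.14, SE, adjusted p = 0.28). MAFG had 157 and 199.6, and then 375, 224 and 284 (0.70 ± 0.21, SE, adjusted p = 0.354). JDP2, a repressor that dimerizes with JUN, was next at -0.30 (adjusted p = 0.606). FOS itself was below the filter with 7.62 and 5.14 normalized counts in Ctr-KD and 1.84, 6.55 and 6.83 in NSD2-KD. FOSB was too, with 3.81 and 2.06, and then 6.44, 13.1 and 6.83. FOSL1 and FOSL2 were thus the FOS-family transcripts above the filter.

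Among 33 other immediate early genes, 24 were tested, 15 lower and 9 higher in value, and the median was -0.13. At an unadjusted p under 0.05 in limma, 3 of the 24 were lower and 4 higher, beside 4.99% and 4.19% of all tested genes. BTG2, a p53-responsive brake on proliferation, had 30.5 and 29.8 normalized counts in Ctr-KD and 52.4, 149.7 and 128 in NSD2-KD, all above both controls (log2 difference 1.70 ± 0.40, SE, adjusted p = 0.241 in limma). CYR61, a secreted matrix protein under SRF and YAP control, had 1329 and 1290.1 in Ctr-KD and 658, 565 and 1043 in NSD2-KD, all below (-0.84 ± 0.22, SE, adjusted p = 0.28). TRIB1, a pseudokinase scaffold, had 44.8 and 51.4, and then 65.3, 69.9 and 93.7 (0.64 ± 0.21, SE, adjusted p = 0.389). The early genes thus included values well apart from control in both directions, none past the threshold in limma over all 5 libraries.

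The pathway upstream was likewise mixed. The 24 kinases, RAS proteins and SRF cofactors were all tested, with 13 lower and 11 higher in value and a median of -0.04. MAPK8 (JNK1), which phosphorylates JUN, had 109.6 and 92.6 normalized counts in Ctr-KD and 59.8, 77.6 and 56.6 in NSD2-KD (log2 difference -0.65 ± 0.19, SE, adjusted p = 0.345 in limma). MAP2K2 (MEK2) had 381 and 362, and then 444, 481 and 465 (0.32, adjusted p = 0.382). NRAS had 349.6 and 360.1, and then 224, 147 and 316 (-0.70, adjusted p = 0.474). SRF had 336 and 355, and then 241, 292 and 367 (-0.22, adjusted p = 0.753), on both sides of the controls. Of 14 genes listed as feedback inhibitors of ERK signalling, 11 were tested, 5 lower and 6 higher, with a median of 0.01. Whether each is induced by ERK in these cells was not tested. SPRED1 had the smallest p (-0.28, adjusted p = 0.527), followed by DUSP10 (0.28) and SPRED3 (-0.63). DUSP6, the ERK phosphatase often used as a readout of the pathway, had 90.5 and 95.7 normalized counts in Ctr-KD and 118, 95 and 57.6 in NSD2-KD.

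Downstream of AP-1, 14 of 16 target genes of fibroblasts were tested, 5 lower and 9 higher in value, with a median of 0.03. HMOX1, heme oxygenase, had 96.2 and 123 normalized counts in Ctr-KD and 719, 359 and 94.7 in NSD2-KD, high with NSD2-1 and NSD2-2 and at the control level with NSD2-3 (log2 difference 1.41 ± 0.68, SE, adjusted p = 0.592 in limma). HBEGF, an EGF receptor ligand, was next at -0.53 (adjusted p = 0.618). CCND1 (cyclin D1) had 3099 and 3112, and then 1459, 4482 and 3069 (-0.19, adjusted p = 0.915), so that NSD2-1 and NSD2-2 lay on opposite sides of the controls. HMOX1 and CCND1 thus had different levels in different NSD2-KD libraries, as JUND and FOSL2 had.

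Around MYC, 13 of the 16 listed partners and antagonists were tested, 7 lower and 6 higher, with a median of -0.03. None had an unadjusted p under 0.05 in limma, beside 9.18% of all tested genes. MAX had 89.6 and 109 normalized counts in Ctr-KD and 112, 104 and 86.9 in NSD2-KD (log2 difference 0.02, adjusted p = 0.979 in limma). MXI1, an antagonist that competes for MAX, was at -0.56 (adjusted p = 0.597), MLX at 0.28 and MYCBP at 0.34. All 23 MYC targets of ribosome and polyamine synthesis were tested, 16 lower and 7 higher, with a median of -0.07. FBL (fibrillarin, the methyltransferase of ribosomal RNA) had 229.6 and 224 in Ctr-KD and 196, 176 and 179.6 in NSD2-KD (-0.30 ± 0.12, SE, adjusted p = 0.494). PPAN, a ribosome assembly factor, had 58.1 and 61.7, and then 80.1, 91.8 and 74.2 (0.44 ± 0.17, SE, adjusted p = 0.471). WDR12 was at 0.40 (adjusted p = 0.606). The MYC targets thus held values on both sides with no call in limma, as MYC itself had.

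**Figure D4:**
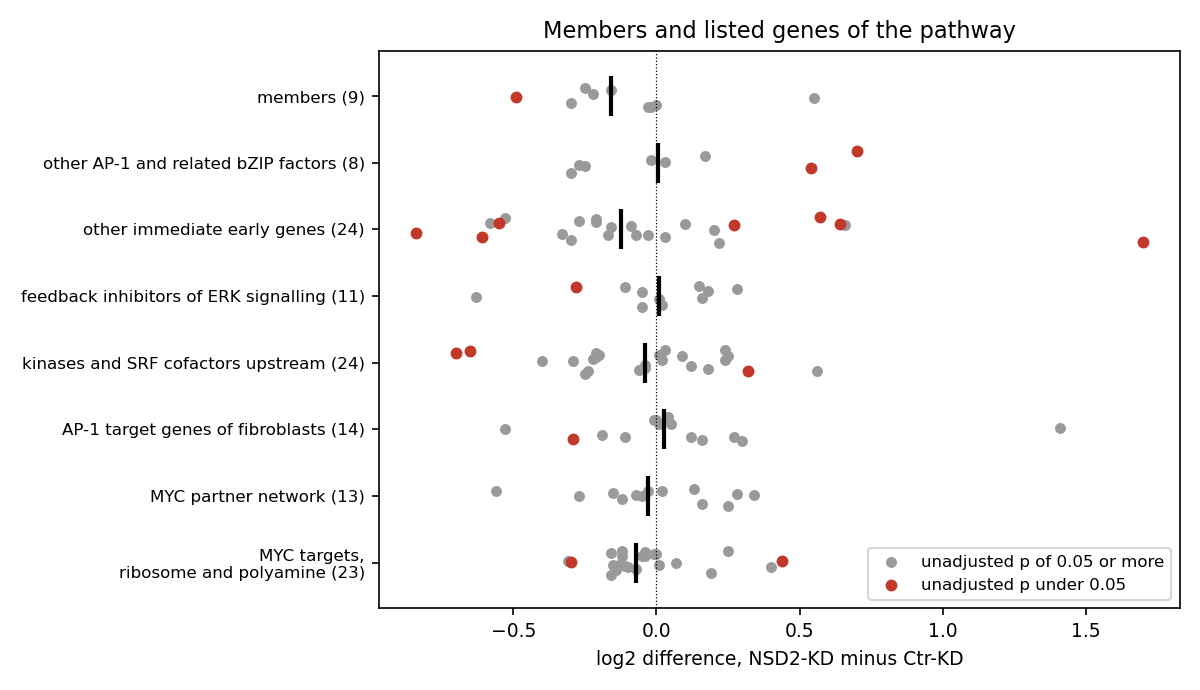
Log2 difference between NSD2-KD and Ctr-KD from limma for each tested gene of the members and of 7 lists of genes around them, with a bar at each list's median and red points for an unadjusted p under 0.05 and grey ones for the rest. Medians lie between -0.16 and 0.03, and no gene passes an adjusted p of 0.05.

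The genes whose course was most like that of EGR1 over the 5 libraries, among 5119 genes with a mean of at least 100 normalized counts, were ODF2, HNRNPAB and LMO7. Their Euclidean distances to EGR1, over log2 values taken relative to the control mean, were 0.117, 0.129 and 0.163. ODF2, a centriole protein, had 203 and 208 normalized counts in Ctr-KD and 159, 169 and 131 in NSD2-KD. HNRNPAB, an RNA-binding protein, had 611 and 622, and then 465, 520 and 394. LMO7, an adaptor of cell junctions, had 746 and 739, and then 612, 599 and 423. In each, as in EGR1, the NSD2-3 library was the lowest, which follows from choosing the genes by likeness over these same libraries. The likeness is a description over 5 libraries.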

How the data were processed

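The authors sequenced poly(A) RNA as single-end reads. After trimming (Trimmomatic), the authors aligned reads to hg19 (HISAT2), selected unique alignments (SAMtools), counted them per gene with featureCounts (annotation and strand setting not given in the sources used here) and deposited counts divided by DESeq2 size factors, a signal of 1 column per library. Whole reads were recovered from the steps of each column (100% of values within 0.01 of a whole read). A deposited DESeq2 table of the authors' fold changes and p-values was not used. The methods call the samples biological replicates, and nothing else shows separate cultures, so p-values measure the spread between these samples.

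The tests used limma 3.58.1 with a mean-variance trend (R 4.3.3) on log2(normalized count + 1), which understates changes of low genes, for genes with a mean of at least 10, with Benjamini-Hochberg adjustment over all tested genes and a threshold of 0.05. Alternatives were other pseudocounts and filters, no trend, quantile normalization, edgeR 4.0.16 (TMM or RLE) and DESeq2 1.42.0 on recovered reads, a replicate block, leaving out each library, and a correction for GC content and transcript length, the last chosen after seeing the data. Counting intervals on reads are exact, at 95%. On simulated data with 4-fold changes for the NSD2-KD against Ctr-KD comparison, limma called 190 of 193 changed genes among 11294 tested and 13 unchanged ones. The simulation gave all libraries the same dispersion, whereas in the data the NSD2-KD libraries varied more than the controls. It held no changes smaller than 4-fold, so it does not say how often smaller ones, such as those of the members, would be called. The members and lists were chosen with earlier results of these data known. Named beside the members were the 3 genes of each list with the smallest unadjusted p, FOS, FOSB, SRF, MAX, DUSP6 and CCND1 by role, and the 3 genes with a mean of at least 100 nearest to EGR1; 1 listed gene that this rule names is not reported here. TUBB, HLA-C, HLA-B, MRPS18B, DHX16, CTGF, NR4A3, BATF2, NR4A2 and SPRY1 were named after their values were seen.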

Additional observations from a re-analysis of the deposited data

How the results depend on the processing

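None of the 9 members was called under limma or any of 16 alternatives. Of 143 member values 132 kept their direction and 11 did not, all of them uncalled and most near 0. FOSL2 was at 0.01 with edgeR and TMM, 0.02 with RLE, 0.02 with DESeq2, 0.05 without the first Ctr-KD library and 0.19 without NSD2-1. JUN was at 0.02 under the replicate block and 0.02 without NSD2-3. MYC was at -0.04 without the first Ctr-KD library, -0.09 without NSD2-1 and -0.0025 with the correction for GC content and length. JUND was at 0.17 without NSD2-2. With a library left out, the values ran from -0.1 to 0.02 for JUN, -0.51 to 0.17 for JUND, -0.23 to 0.19 for FOSL2, -0.09 to 0.05 for MYC, 0.28 to 0.81 for ATF3, -0.29 to -0.08 for FOSL1, -0.42 to -0.18 for JUNB and -0.22 to -0.1 for IER2. ATF3 has no value at a minimum mean of 50.

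Calls over all genes numbered 10 in limma, 1 without the trend, 16 with edgeR under TMM and 16 under RLE, 55 with DESeq2 and 102 with the replicate block. Leaving out a library gave 0 to 30, with 0 without either Ctr-KD library, 16 without NSD2-1, 4 without NSD2-2 and 30 without NSD2-3. Listed genes called numbered 0 in limma, 1 with DESeq2 (BTG2, adjusted p = 0.00617), 4 with the block and 0 to 2 with a library left out. Those of the block, which drops NSD2-3 for want of a partner, were CYR61 (adjusted p = 0.00446), HMOX1 (0.00654), NRAS (0.0389) and CTGF (0.0432). BTG2 was called without NSD2-1 (0.02), and CYR61 (0.0141) and HMOX1 (0.0376) without NSD2-3. Same-numbered libraries deviated from their group means with r = -0.0152 and -0.0267 over genes. The deviations of 2 controls mirror each other and here hold little but counting error, so these values cannot show whether the replicate numbers pair samples. With a library left out, 3 to 5 members were below the controls in every NSD2-KD library and 0 to 2 above. Such a separation is easier for any gene with fewer libraries, and its share over all genes was not computed here, so these counts have no background. With 2 controls that differ by little more than counting error, the spread rests on the 3 siRNA libraries, and genes under about 3 reads were not measurable.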

Other observations

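Of the genes in the 7 lists, 22 were below the filter, with no value above 14.2 normalized counts, and 5 of them (BATF, MAF, EGR4, MLXIPL and MYCN) were listed at 0 in every library. NR4A3, an orphan nuclear receptor of the early response, had 5.72 and 3.09 normalized counts in Ctr-KD and 2.76, 14.2 and 12.7 with NSD2-1, NSD2-2 and NSD2-3, low values on both sides of the controls that were not tested. FOSB, BATF2, NR4A2 and SPRY1, also below the filter, had all NSD2-KD values above both controls, and no listed gene there had all below. These values rest on few reads and were not tested, and the share of all genes below the filter with such a pattern was not computed.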
